A study of Mus musculus with 9 samples.

Results

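The transcripts of the IL-6 and IL-27 receptors, of 2 kinases that act with them and of STAT3 were followed in gut regulatory T cells (Tregs). The 6 genes were Il6ra, Il6st, Il27ra, Jak2, Tyk2 and Stat3. Each was taken by its symbol as the brightest array feature annotated to that gene alone, which gave 6 of the 22180 genes with a feature of their own. Each of the 6 had a single such feature, and all 6 passed the filter on dim genes described below.

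IL-6 binds the receptor α chain encoded by Il6ra, and the pair then engages gp130, the shared signalling chain encoded by Il6st. IL-27 uses gp130 as well, together with its own chain encoded by Il27ra. JAK family kinases bound to these chains, JAK2 and TYK2 among them, phosphorylate STAT3, which enters the nucleus and drives genes such as Socs3. IL-6 opposes the induction of Foxp3 in naive T cells, STAT3 within Tregs is known for restraint of Th17 inflammation in the gut, and IL-27 for a T-bet-expressing Treg state.

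Tregs came from Y3/CD103-/-, Y3 and wild-type (WT) mice, with 3 arrays per genotype and 9 in all. All 3 groups were C57BL/6, and in all 3 the cells were sorted from the lamina propria of small and large intestine by a red fluorescent protein linked to Foxp3, per the labels. CD103 is the αE integrin chain encoded by Itgae. The labels do not describe Y3. The series title names IL-2Rβ, a chain of the IL-2 receptor, and as background knowledge from outside these files Y3 stands for that chain with altered cytoplasmic tyrosines and reduced STAT5 signalling. The labels give no age, sex or pooling of animals, so p-values measure the spread between these arrays, which may be technical. No group lacked CD103 alone.

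Values are log2 signals after RMA, a method that background-corrects, normalises and summarises array probes. Y3 arrays 1 and 3 were more alike than any other pair within a group (r 0.984 and a median absolute log2 difference of 0.157, against r from 0.951 to 0.973 and differences from 0.221 to 0.281). Results are therefore also given with these 2 arrays averaged as 1 sample where that ends a call of a receptor, STAT, regulator or target gene. For the marker genes of cell types, such results are not given gene by gene, so their calls may depend on these 2 arrays. The number of arrays limits the precision, and a level of one gene was not set against that of another. Differences were tested with limma over 12792 genes, and a gene was said to rise or fall at a Benjamini-Hochberg adjusted p under 0.05. Itgae stood at 6.52 ± 0.42 in Y3/CD103-/-, 9.32 ± 0.20 in Y3 and 7.93 ± 0.12 in WT (SD, n = 3 each), so the lowest level was that of the group labelled as lacking CD103. Il2rb, which encodes IL-2Rβ, stood at 8.16 ± 0.31, 8.15 ± 0.32 and 9.19 ± 0.22 in Y3/CD103-/-, Y3 and WT, and neither difference from WT passed (adjusted p = 0.059 in Y3/CD103-/- and 0.0565 in Y3). Foxp3 stood at 9.55 ± 0.059, 9.52 ± 0.17 and 9.38 ± 0.095 in Y3/CD103-/-, Y3 and WT. Over all 12792 genes the median log2 difference was 0.15 in Y3 versus WT (0.039 after quantile normalization), 0.037 in Y3/CD103-/- versus WT and -0.10 in Y3/CD103-/- versus Y3.

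Some of the 6 genes were higher with Y3 and others lower. In Y3/CD103-/- against WT, Il6st fell 1.84-fold and Stat3 rose 1.66-fold, and these 2 of the 6 genes passed (0.836% of all tested genes passed, 0.555% up and 0.281% down). Il6ra was 1.99-fold lower and Il27ra 1.49-fold higher in Y3/CD103-/- without passing. In Y3 against WT the signs were the same for each of these 4 genes, and 0 of 6 passed (0.79% of all tested genes passed, 0.618% up and 0.172% down). At an unadjusted p under 0.05 in limma, 2 of the 6 were higher and 2 lower in Y3/CD103-/- against WT, where 13.3% of all tested genes differed (7.9% higher and 5.35% lower). The counts were the same in Y3 against WT, where 17% of all tested genes differed (13.4% higher and 3.6% lower). Between Y3/CD103-/- and Y3, 0 of 6 passed and 0 of 6 had an unadjusted p under 0.05 (0.00782% of all tested genes passed, and 9.9% had such a p, 1.78% higher and 8.12% lower). The 2 comparisons with WT use the same WT arrays, so their shared signs are not independent.

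**Figure D1:**
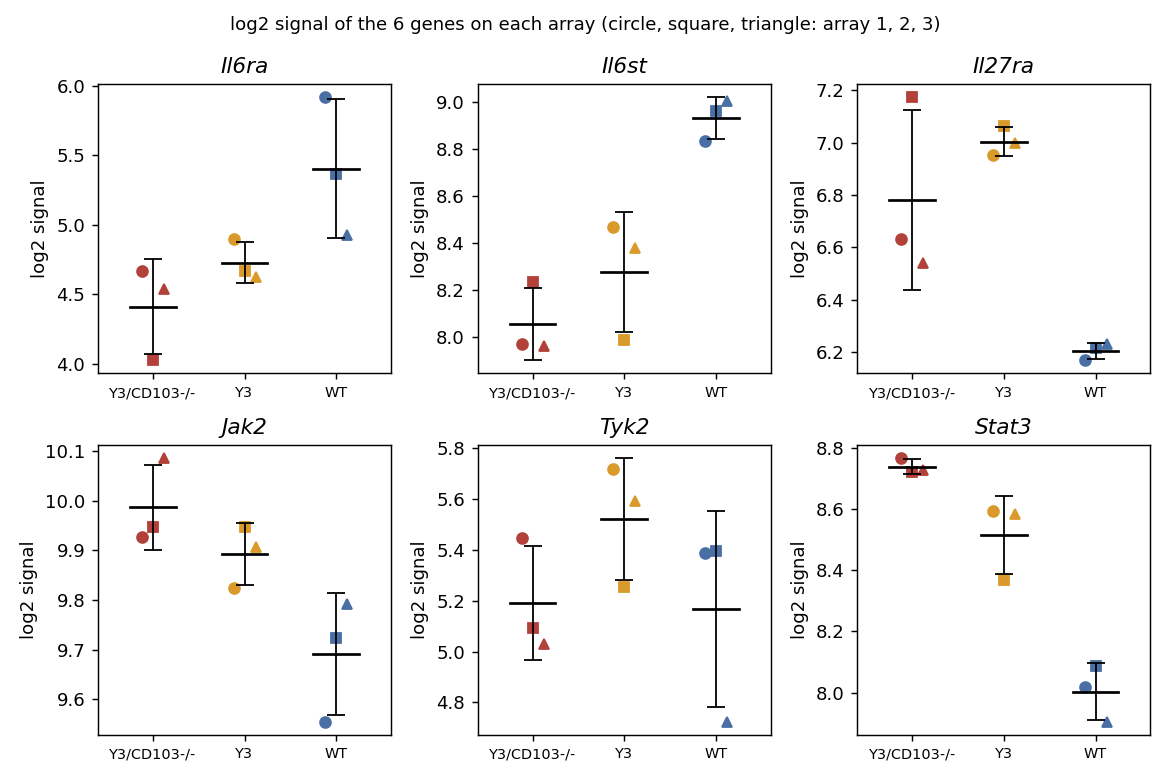
The log2 signal (vertical axis) of each of the 6 genes on the 3 arrays each of Y3/CD103-/-, Y3 and WT, with the group mean (long bar) and SD (whiskers). Il6ra and Il6st lie highest in WT, Il27ra and Stat3 lie lowest in WT, and each vertical axis covers only the range of its gene.

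Il6st encodes gp130, the signalling chain that IL-6 and IL-27 share. It measured 7.97, 8.23 and 7.96 on the Y3/CD103-/- arrays, 8.47, 7.99 and 8.38 on the Y3 arrays, and 8.83, 8.96 and 9.0 on the WT arrays. All 6 arrays with Y3 lay below all 3 WT arrays, while the groups with Y3 overlapped each other. The log2 difference was -0.88 ± 0.17 (SE) in Y3/CD103-/- versus WT (95% interval -1.25 to -0.50, adjusted p = 0.0447 in limma). It was -0.65 ± 0.17 in Y3 versus WT (-1.03 to -0.28, adjusted p = 0.106). The order of the means was WT, Y3, Y3/CD103-/- from high to low, and the lower neighbours differed by -0.22 in Y3/CD103-/- versus Y3 (-0.60 to 0.15, adjusted p = 0.682). With Y3 array 2 left out the fall in Y3/CD103-/- still passed (0.0417). Leaving out any other array raised the adjusted p to between 0.0709 and 0.144, with the difference between -0.97 and -0.83. With Y3 arrays 1 and 3 averaged it was 0.0760.

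Il6ra encodes the IL-6-binding chain. It measured 4.67, 4.03 and 4.54 on the Y3/CD103-/- arrays, 4.90, 4.67 and 4.62 on the Y3 arrays, and 5.92, 5.37 and 4.93 on the WT arrays. Both groups with Y3 lay below every WT array, the nearest being Y3 array 1 and WT array 3, and the WT arrays were the most spread (SD 0.50, against 0.34 in Y3/CD103-/- and 0.15 in Y3). The log2 difference was -0.99 ± 0.25 in Y3/CD103-/- versus WT (-1.55 to -0.43, adjusted p = 0.109) and -0.68 ± 0.25 in Y3 versus WT (-1.24 to -0.11, adjusted p = 0.222). Neither passed in limma. Without WT array 1 the difference in Y3 was -0.42. The means ran from WT down through Y3 to Y3/CD103-/-, and the lower neighbours differed by -0.32 (-0.88 to 0.25, adjusted p = 0.703).

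Il27ra encodes the chain particular to the IL-27 receptor. It measured 6.63, 7.18 and 6.54 on the Y3/CD103-/- arrays, 6.95, 7.06 and 7.00 on the Y3 arrays, and 6.17, 6.22 and 6.23 on the WT arrays. Every array with Y3 lay above every WT array, and the Y3/CD103-/- arrays spread on both sides of the Y3 arrays. The log2 difference was 0.58 ± 0.18 in Y3/CD103-/- versus WT (0.18 to 0.97, adjusted p = 0.187) and 0.80 ± 0.18 in Y3 versus WT (0.40 to 1.20, adjusted p = 0.0753). The means ran Y3, Y3/CD103-/-, WT from high to low, and the upper neighbours differed by -0.22 in Y3/CD103-/- versus Y3 (-0.62 to 0.17, adjusted p = 0.704). In Y3 versus WT it passed without Y3/CD103-/- array 2 (adjusted p = 0.0366), with array weights (0.0392), with an intensity trend in the variance (0.0146) and among genes above the median on all 9 arrays (0.0374). These were 1 of the 9 fits that left out an array and 3 of 11 other alternatives. The rest did not pass, such as quantile normalization, with a difference of 0.64 (adjusted p = 0.159 in limma). With Y3 arrays 1 and 3 averaged the adjusted p was 0.255, and with another array left out it lay between 0.0779 and 0.264. Without Y3/CD103-/- array 2 the difference of Il27ra in Y3/CD103-/- versus WT was 0.38.

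Jak2, a kinase that also serves the IL-12 and interferon-γ receptors, differed less. It measured 9.93, 9.95 and 10.09 on the Y3/CD103-/- arrays, 9.82, 9.95 and 9.91 on the Y3 arrays, and 9.55, 9.72 and 9.79 on the WT arrays. The WT arrays lay below all the others by a narrow margin. The log2 difference was 0.30 ± 0.14 in Y3/CD103-/- versus WT (-0.020 to 0.61, adjusted p = 0.410), 0.20 ± 0.14 in Y3 versus WT (-0.11 to 0.52, adjusted p = 0.494) and 0.094 ± 0.14 in Y3/CD103-/- versus Y3 (-0.22 to 0.41, adjusted p = 0.864).

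Tyk2, a JAK kinase of the IL-12 and type I interferon receptors, overlapped across all groups. It measured 5.44, 5.09 and 5.03 on the Y3/CD103-/- arrays, 5.72, 5.25 and 5.59 on the Y3 arrays, and 5.39, 5.39 and 4.72 on the WT arrays. WT array 3 was the lowest of the 9, and Y3 array 1 the highest. The log2 difference was 0.021 ± 0.22 in Y3/CD103-/- versus WT (-0.47 to 0.51, adjusted p = 0.981), a sign that turned with quantile normalization (-0.022), array weights (-0.037) and some arrays left out. It was 0.35 ± 0.22 in Y3 versus WT (-0.14 to 0.84, adjusted p = 0.436) and -0.33 ± 0.22 in Y3/CD103-/- versus Y3 (-0.82 to 0.16, adjusted p = 0.635).

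Stat3 encodes the transcription factor that both receptors activate, and it was the single gene of the 6 whose 3 groups were all apart. It measured 8.77, 8.72 and 8.73 on the Y3/CD103-/- arrays, 8.59, 8.37 and 8.58 on the Y3 arrays, and 8.02, 8.09 and 7.90 on the WT arrays. No array of any group overlapped with another group, and the order was Y3/CD103-/-, Y3, WT from high to low. The log2 difference was 0.74 ± 0.14 in Y3/CD103-/- versus WT (0.42 to 1.05, adjusted p = 0.0447) and 0.51 ± 0.14 in Y3 versus WT (0.20 to 0.83, adjusted p = 0.123). Between the upper neighbours it was 0.22 ± 0.14 in Y3/CD103-/- versus Y3 (-0.092 to 0.54, adjusted p = 0.617). The rise in Y3/CD103-/- missed the threshold in each of the 9 fits that left out an array (0.0573 to 0.134 in limma), with the difference between 0.69 and 0.78. With Y3 arrays 1 and 3 averaged it was 0.0820.

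The groups did not overlap for 5 of the 6 genes in Y3/CD103-/- versus WT, 3 higher and 2 lower, where they did not overlap for 17.4% of all tested genes (10.7% higher and 6.68% lower). They did not overlap for the same number in Y3 versus WT, again 3 higher and 2 lower, with 23.9% of all tested genes (19% higher and 4.93% lower). Between Y3/CD103-/- and Y3, Stat3 alone of the 6 did not overlap, with 18.6% of all tested genes (4.11% higher and 14.4% lower). Relative to the median of all genes in Y3 versus WT, Il27ra stood at 0.65, Stat3 at 0.36, Tyk2 at 0.20, Jak2 at 0.054, Il6st at -0.80 and Il6ra at -0.82.

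**Figure D2:**
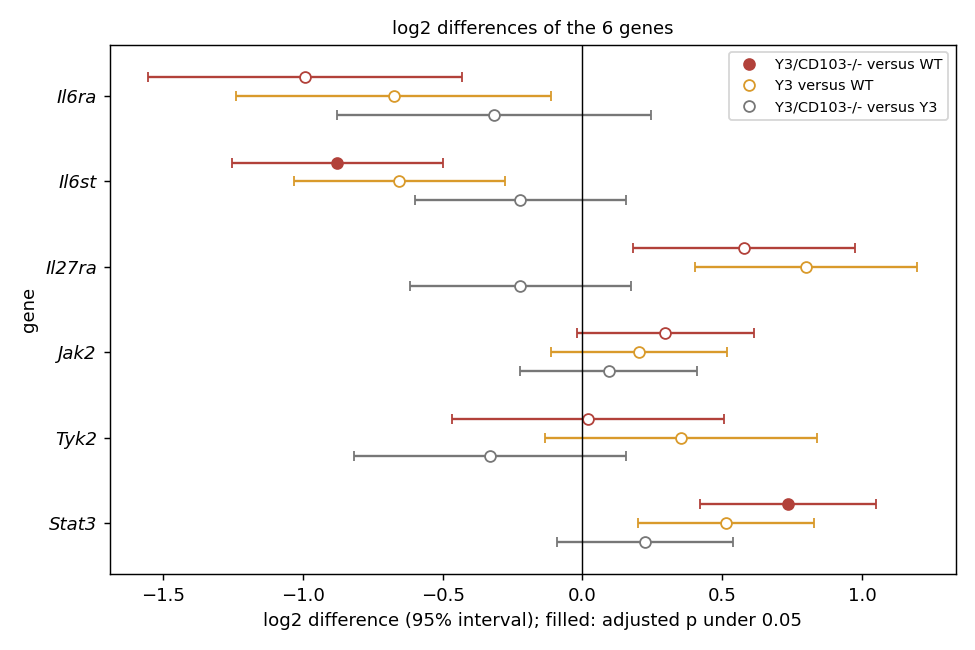
The log2 difference (horizontal axis) of each of the 6 genes for Y3/CD103-/- and Y3, both against WT, and for Y3/CD103-/- against Y3, drawn with its 95% interval and a filled point where the adjusted p was under 0.05. Il6st at -0.88 and Stat3 at 0.74 in Y3/CD103-/- versus WT are the filled points, and every interval of Y3/CD103-/- versus Y3 crosses 0.

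Among 12 tested of 15 other cytokine receptor chains, Il12rb2 and Il21r rose and Il10ra fell in Y3/CD103-/- versus WT. The median difference of the list was 0.039, beside 0.037 over all tested genes. Il12rb2, a chain of the IL-12 receptor, stood at 7.05 ± 0.23 in Y3/CD103-/-, 6.98 ± 0.20 in Y3 and 4.90 ± 0.29 in WT. It rose 4.43-fold in Y3/CD103-/- (adjusted p = 0.000934 in limma) and 4.22-fold in Y3 (adjusted p = 0.00161). Il21r, the receptor of IL-21, a STAT3-activating cytokine, stood at 9.64 ± 0.079, 9.19 ± 0.096 and 8.75 ± 0.13 in Y3/CD103-/-, Y3 and WT. The rise of Il21r was 0.90 log2 in Y3/CD103-/- (adjusted p = 0.0223), while in Y3 the difference was 0.45 (adjusted p = 0.174).

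Il10ra, the ligand-binding chain of the receptor through which IL-10 activates STAT3, followed the direction of Il6ra and Il6st. It stood at 4.14 ± 0.22 in Y3/CD103-/-, 4.85 ± 0.23 in Y3 and 5.86 ± 0.22 in WT. It fell 3.29-fold in Y3/CD103-/- (adjusted p = 0.00356 in limma), also with each of the 9 arrays left out, and 2.01-fold in Y3 (adjusted p = 0.0393). In Y3 versus WT, 1 of the 12 chains rose and 1 fell, with a list median of 0.17. The fall of Il10ra in Y3 was lost when WT array 2 or 3, any 1 Y3 array or Y3/CD103-/- array 1 was left out (0.0543 to 0.191). Ifngr2, a chain of the interferon-γ receptor, differed by -0.65 in Y3/CD103-/- and -0.53 in Y3 without passing. The rise of Il21r was lost without WT array 1 (0.0613), Y3/CD103-/- array 1 (0.0619) or Y3/CD103-/- array 3 (0.0874).

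Of 10 tested of 15 ligand genes, 0 passed in any comparison in limma. Each comparison with WT had 2 of them higher and 1 lower by the unadjusted p. Beside this and the later lists, that p marked 7.9% of all tested genes as higher and 5.35% as lower in Y3/CD103-/- versus WT. In Y3 versus WT it marked 13.4% as higher and 3.6% as lower. The median difference of the ligand genes was 0.11 in Y3/CD103-/- and 0.24 in Y3, both against WT. The lower gene was Il10, an anti-inflammatory cytokine that Tregs make, at 9.60 ± 0.23 in Y3/CD103-/-, 9.72 ± 0.26 in Y3 and 10.42 ± 0.085 in WT. Its log2 difference was -0.81 in Y3/CD103-/- (adjusted p = 0.0688) and -0.69 in Y3 (adjusted p = 0.106). Il27, a subunit of IL-27, differed by 0.53 in Y3/CD103-/- (adjusted p = 0.504) and 0.82 in Y3 (0.221). The Th17 cytokine genes Il17a and Il17f differed by 0.81 and 0.88 in Y3/CD103-/- and by 0.45 and 1.17 in Y3 (adjusted p from 0.144 to 0.498). Il17f was dim in WT, with a mean of 2.89 beside WT array medians from 3.18 to 3.23. Il6, named here after its values were seen, did not pass the filter on dim genes, with 1.84 ± 0.34 in Y3/CD103-/-, 1.55 ± 0.34 in Y3 and 2.09 ± 0.34 in WT.

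Of 7 tested of 9 other JAK and STAT genes, 0 passed in limma in any comparison. The list median was 0.046 in Y3/CD103-/- and 0.15 in Y3, beside 0.037 and 0.15 over all tested genes. By the unadjusted p, 3 of the 7 were higher and 0 lower in each comparison with WT. The 3 were Stat5a and Stat5b, the factors of IL-2 signalling, and Stat4, the factor of IL-12 signalling. Against WT, their Y3/CD103-/- log2 differences were 0.72 (adjusted p = 0.0881), 0.48 (0.147) and 0.52 (0.159). In Y3 versus WT they were 0.61 (0.123), 0.30 (0.291) and 0.40 (0.221). Stat2, of type I interferon signalling, differed by -0.26 in Y3/CD103-/- and 0.093 in Y3.

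All 14 negative regulators of the pathway in the list were tested, and in Y3 versus WT Socs3 rose and Socs2 fell, with a list median of 0.26. Socs3, a STAT3 target whose protein blocks signalling through gp130, stood at 7.64 ± 0.035 in Y3/CD103-/-, 7.84 ± 0.24 in Y3 and 6.93 ± 0.19 in WT. Its log2 difference was 0.71 in Y3/CD103-/- (adjusted p = 0.0922) and 0.91 in Y3 (adjusted p = 0.0392). Socs2, which STAT5 induces, stood at 3.86 ± 0.63, 3.25 ± 0.38 and 5.37 ± 0.14 in Y3/CD103-/-, Y3 and WT, and it fell 2.84-fold in Y3/CD103-/- (0.0447) and 4.34-fold in Y3 (0.0119). Socs2 was the single regulator that passed in Y3/CD103-/- versus WT, where the list median was 0.30. Socs1 differed by 0.57 in Y3/CD103-/- and 0.87 in Y3 (adjusted p = 0.189 and 0.0555). Adam17, a protease that sheds the IL-6 receptor, differed by 0.79 and 0.69 (0.054 and 0.0856).

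The rise of Socs3 in Y3 was lost in each of the 9 fits that left out an array (adjusted p from 0.0526 to 0.202 in limma). That of Socs2 in Y3, a fall, was lost without Y3 array 1 (0.0796) or 3 (0.0919). In Y3/CD103-/- the fall of Socs2 held without Y3/CD103-/- array 2 (0.0116) and was lost without each of the other arrays in turn (0.0553 to 0.145). With the mean of a gene's features in place of the brightest, Socs3 in Y3 differed by 0.70 and did not pass (0.0549). Socs2 then differed by -1.43 in Y3 (0.0154) and -1.25 in Y3/CD103-/- (0.0239) and passed in both.

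Of 21 tested of 22 genes known to be induced through STAT3, 0 passed in Y3/CD103-/- versus WT in limma, and the unadjusted p marked 6 as higher and 1 as lower, with a list median of 0.12. In Y3 versus WT, Batf and Socs3 rose and 0 fell, and the unadjusted p marked 4 as higher and 1 as lower, with a list median of 0.047. The median over all tested genes was 0.037 in Y3/CD103-/- and 0.15 in Y3, both against WT. Batf, a transcription factor of effector T cells, stood at 7.34 ± 0.11 in Y3/CD103-/-, 7.60 ± 0.077 in Y3 and 6.77 ± 0.15 in WT, and its rise in Y3 was 0.83 log2 (adjusted p = 0.032). Icos, a co-stimulatory receptor, differed by 0.47 in Y3/CD103-/- and 0.45 in Y3 without passing, and Il10 is the lower gene given above. Of 14 tested of 18 genes that IL-27 induces in T cells, 2 rose in Y3/CD103-/- and 4 in Y3, and 0 fell in either. The unadjusted p marked 4 as higher and 3 as lower in Y3/CD103-/-, and 4 as higher and 2 as lower in Y3, with a list median of 0.042 in both comparisons with WT. Il12rb2 and Socs3 are among these and were given above.

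Tbx21, which encodes T-bet, stood at 4.68 ± 0.18 in Y3/CD103-/-, 5.0 ± 0.18 in Y3 and 3.94 ± 0.21 in WT. Its rise in Y3 was 1.07 log2 (adjusted p = 0.0238), while in Y3/CD103-/- the difference was 0.75 (adjusted p = 0.0881). Cxcr3, a chemokine receptor that T-bet induces, stood at 6.34 ± 0.29, 6.43 ± 0.029 and 5.34 ± 0.22 in Y3/CD103-/-, Y3 and WT, and rose 2.00-fold in Y3/CD103-/- (0.0347) and 2.14-fold in Y3 (0.0246). The rise of Batf in Y3 was lost without WT array 2 or 3 or any 1 Y3 array (0.0681 to 0.170), that of Tbx21 without WT array 3 or Y3 array 1 or 3 (0.0681 to 0.144), and that of Cxcr3 without WT array 1 or 2 or any 1 Y3 array (0.0562 to 0.125). The rise of Cxcr3 in Y3/CD103-/- held only when the array left out was WT array 3 or Y3/CD103-/- array 1 (0.0603 to 0.124 in the other 7 fits). Between Y3/CD103-/- and Y3, 0 genes of these lists passed in limma, while the unadjusted p marked Il21r as higher and Il10ra, Ptpn6 and Irf8 as lower. Ptpn6 and Irf8 were named after their values were seen.

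With Y3 arrays 1 and 3 averaged, 6 of the 7 calls of these genes in Y3 versus WT were lost, namely Batf (adjusted p = 0.149 in limma), Cxcr3 (0.127), Tbx21 (0.139), Socs3 (0.175), Socs2 (0.0781) and Il10ra (0.163), while Il12rb2 passed (0.0162). Against WT, the calls of Cxcr3 (0.0680) and Socs2 (0.0665) in Y3/CD103-/- were lost as well, and those of Il12rb2, Il10ra and Il21r passed. After quantile normalization, the rises of Batf (adjusted p = 0.0677 in limma), Cxcr3 (0.0574) and Socs3 (0.0643) in Y3 were lost, while Tbx21 passed (0.0358). Without the filter on dim genes, Batf (0.0703), Cxcr3 (0.0531), Socs3 (0.0748), Tbx21 (0.0531) and Il10ra (0.0724) did not pass in Y3 versus WT. In Y3/CD103-/- versus WT, Cxcr3 (0.0752), Il21r (0.0537) and Socs2 (0.0792) were then lost.

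**Figure D3:**
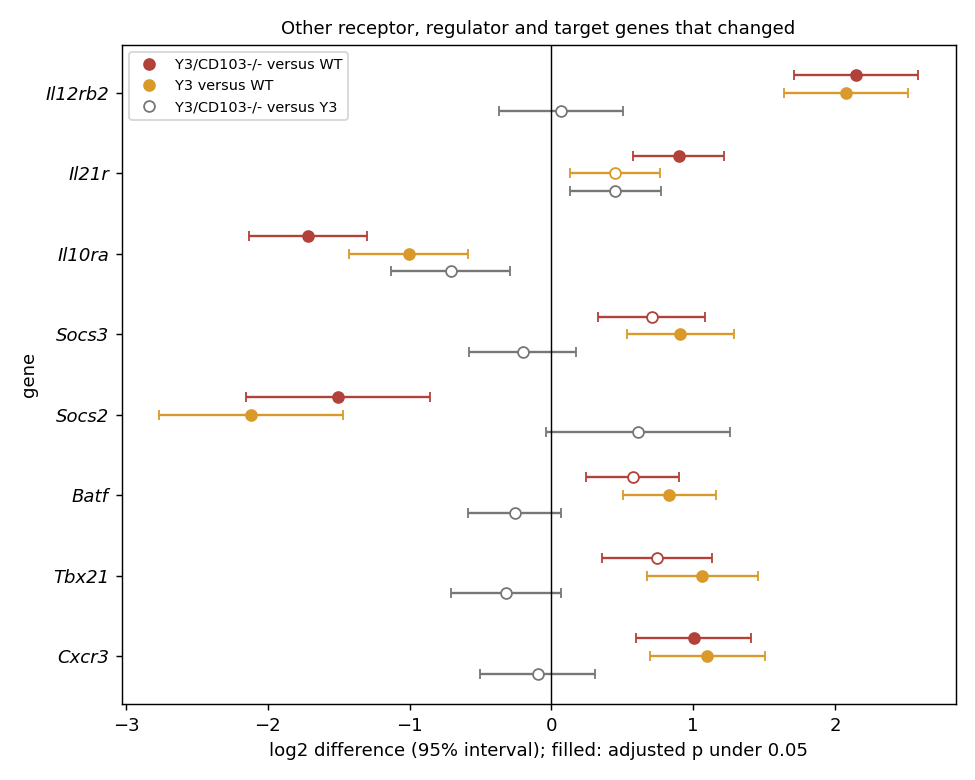
The log2 difference (horizontal axis, with 95% interval) of the 8 other receptor, regulator and target genes that passed in a comparison with WT, each drawn for the same 3 comparisons, with filled points at an adjusted p under 0.05. Il12rb2 lies near 2.1 in both comparisons with WT, Il10ra at -1.72 and -1.01, and no gene has a filled point in Y3/CD103-/- versus Y3.

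The upstream sequences of the 2 genes that passed, Il6st and Stat3, and of the STAT3 target Socs3 are shown. STAT proteins often bind DNA at paired half-sites spelled TTCNNNGAA, which reads the same on both strands. Each sequence is the 250 bases before the gene's start on its own strand, 5′ to 3′, from RefSeq on GRCm38.p6, with matches in capitals. Il6st lies at chr13:112463820-112464069 on the plus strand, Stat3 at chr11:100939541-100939790 on the minus strand and Socs3 at chr11:117969367-117969616 on the minus strand.
Il6st: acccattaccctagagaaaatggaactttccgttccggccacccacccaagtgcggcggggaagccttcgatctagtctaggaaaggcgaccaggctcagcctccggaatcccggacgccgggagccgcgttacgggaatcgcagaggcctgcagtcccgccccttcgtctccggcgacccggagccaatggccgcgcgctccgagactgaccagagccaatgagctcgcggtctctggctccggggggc
Stat3: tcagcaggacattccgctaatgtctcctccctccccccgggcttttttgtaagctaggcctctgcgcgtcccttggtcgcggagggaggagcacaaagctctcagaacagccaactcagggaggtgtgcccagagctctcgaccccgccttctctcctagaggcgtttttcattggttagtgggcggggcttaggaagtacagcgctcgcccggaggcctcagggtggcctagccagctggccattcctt
Socs3: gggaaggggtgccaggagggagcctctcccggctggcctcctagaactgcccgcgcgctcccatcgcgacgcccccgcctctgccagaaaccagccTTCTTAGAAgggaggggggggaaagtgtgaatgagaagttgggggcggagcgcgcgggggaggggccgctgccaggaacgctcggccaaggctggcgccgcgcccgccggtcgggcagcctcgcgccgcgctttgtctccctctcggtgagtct
Socs3 held 1 match, TTCTTAGAA. Of the 6 genes of the receptor group, 5 had a sequence in the table, and the pattern TTCNNNGAA was in 0 of the 5 windows. Only this exact pattern was sought, so other forms of a STAT site were not looked for. Of all 32851 windows of the same length, 7.02% held a match.

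The genes whose log2 signals followed each of the 6 most closely over the 9 arrays are given as a description. The 9 points fall into 3 genotypes, and the correlations are Pearson's r among 11830 tested genes. Stat3 was nearest to Dgat1 (0.986) and Elovl6 (0.983), enzymes of triglyceride synthesis and fatty acid elongation, and to Stat5b (0.977). Il6st was nearest to Sccpdh (0.961), to Nrp1 (0.961), a surface receptor of thymic Tregs, and to Xylb (0.956). Il27ra was nearest to Fam53a (0.981), Tmem191c (0.957) and Sla (0.952), an adaptor that restrains antigen receptor signalling. Il6ra was nearest to Pabpc4 (0.960), Cyth4 (0.941) and Defa26 (0.925), an α-defensin of Paneth cells in the epithelium. Jak2 was nearest to D16Ertd472e (0.971), Zbtb1 (0.958) and Sik2 (0.951), and Tyk2 to Ikbke (0.990), Minpp1 (0.965) and Gbp5 (0.956).

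Some genes listed as markers of other cells differed between the groups, and others did not. All 12 epithelial genes of the list were lower in both comparisons with WT, with a median difference of -0.52 in Y3/CD103-/- and -1.09 in Y3, and 0 passed in limma (3 and 7 lower at an unadjusted p under 0.05). Their mean log2 signal lay between 4.07 and 5.88 on the Y3/CD103-/- arrays, 4.11 and 4.67 on the Y3 arrays, and 5.34 and 6.44 on the WT arrays. The mean of 11 macrophage, monocyte and dendritic cell genes lay between 4.24 and 4.49 on the Y3/CD103-/- arrays, 3.81 and 3.94 on the Y3 arrays, and 4.05 and 4.63 on the WT arrays. Of 9 tested, 0 passed in Y3/CD103-/- versus WT in limma (1 higher and 0 lower by the unadjusted p), with a median difference of 0.028. In Y3 versus WT, H2-Aa fell, the unadjusted p marked 1 as higher and 4 as lower, and the median was -0.44. Between Y3/CD103-/- and Y3, 0 passed, 4 were higher and 0 lower by the unadjusted p, and the median was 0.38. The mean of 7 innate lymphoid genes lay between 6.19 and 6.32 on the Y3/CD103-/- arrays, 6.03 and 6.36 on the Y3 arrays, and 6.54 and 6.78 on the WT arrays. By the unadjusted p, 3 of the 7 were higher and 3 lower in Y3/CD103-/- versus WT, with a median of -0.27. In Y3 versus WT 0 were higher and 3 lower, with a median of -0.19. Il7r and Il17rb fell in both comparisons with WT, and these, H2-Aa and Nkg7 were named after their values were seen. With Y3 arrays 1 and 3 averaged, 1 of all tested genes fell in Y3 versus WT, so at most 1 of the falls of H2-Aa, Il7r and Il17rb passed there. Of 5 tested CD8, NK and γδ T cell genes, Nkg7, a gene of cytotoxic granules, rose in both comparisons with WT and 0 fell. It stood at 8.58 ± 0.23 in Y3/CD103-/-, 8.67 ± 0.088 in Y3 and 6.65 ± 0.21 in WT, with log2 differences of 1.93 in Y3/CD103-/- (adjusted p = 0.000934) and 2.03 in Y3 (0.00121). The list median was -0.12 in Y3/CD103-/- and 0.13 in Y3, both against WT. Of 5 tested B and plasma cell genes and 3 tested stromal, endothelial and red cell genes, 0 passed in any comparison.

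The mean of 8 Treg genes lay between 9.27 and 9.38 on the Y3/CD103-/- arrays, 9.31 and 9.42 on the Y3 arrays, and 9.25 and 9.34 on the WT arrays. Il2ra, the α chain of the IL-2 receptor, was the single one of these 8 that passed, and it fell by 0.86 log2 in Y3/CD103-/- versus WT (adjusted p = 0.0258 in limma). In Y3 versus WT the difference of Il2ra was -0.65 (adjusted p = 0.0790). By the unadjusted p, 2 of the 8 were higher and 1 lower in each comparison with WT. Log2 signals have no true zero, so no marker could be called absent. In these bulk sorts, fewer cells of a type and less RNA per cell cannot be told apart, and the part of other cells in the differences of the 6 genes and of Il12rb2, Tbx21 and Cxcr3 was not tested.

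**Figure D4:**
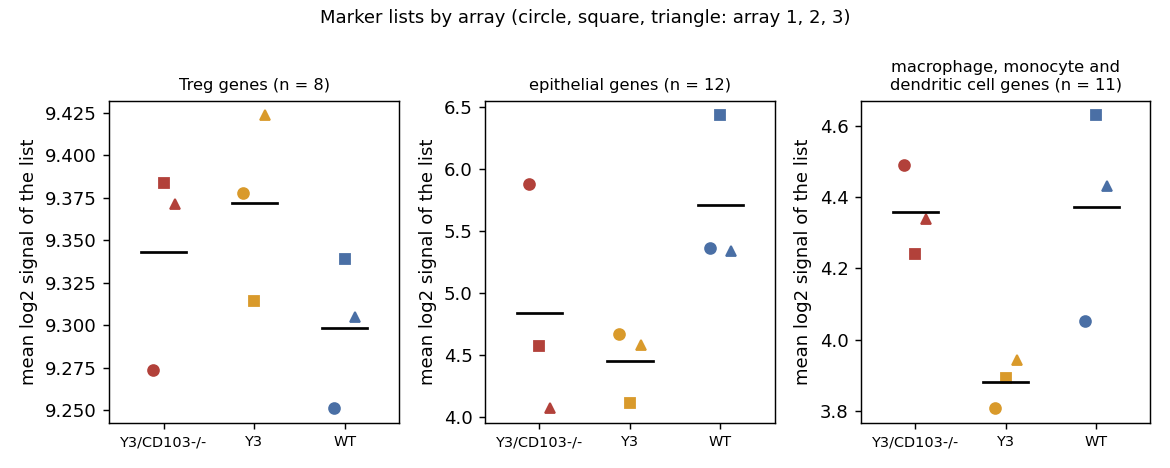
The mean log2 signal (vertical axis) of the Treg, epithelial, and macrophage, monocyte and dendritic cell lists on each array of Y3/CD103-/-, Y3 and WT, with the group mean as a bar. The Treg list stays within 9.25 to 9.42, while the epithelial list spans 4.07 to 6.44 and the 3 Y3 arrays have the lowest values of the macrophage list.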

How the data were processed

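Total RNA was linearly amplified, labelled with biotin and hybridized to Affymetrix mouse Gene ST2.0 arrays, per the labels' protocols. The authors deposited log2 signals made with RMA, per the submitters' processing notes, and their range of values fits that scale. Its settings and the annotation build were not given in the sources used here. Of 39137 features, 23521 named exactly 1 gene, and the brightest feature per gene gave 22180 genes. Of these features, 23328 matched the RefSeq table of GRCm38.p6 by gene identifier, and 0 symbols changed. A gene was tested if above its array's median on at least 3 of 9 arrays, which left 12792.

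limma 3.58.1 in R 4.3.3 fitted group means over all 9 arrays with no block, and eBayes moderated the spread. Tests were 2-sided and adjusted over all tested genes. Alternatives changed the dim-gene filter, the feature rule, normalization, weighting, variance moderation, the block and which arrays were fitted. The code was checked on simulated data. The replicate numbers were not taken as pairs, as given in the closing section.

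Named were the 6 genes, Foxp3, Il2ra, Il2rb and Itgae as label checks, members of pathway lists that passed, otherwise up to 4 per list by smallest p, and the 3 genes most like each of the 6. Predicted genes were left out. The 6 genes and all lists were chosen with earlier results of these data known.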

Additional observations from a re-analysis of the deposited data

How the results depend on the processing

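The count of the 6 genes that passed in Y3 versus WT, 0, became 1 among genes above the median on all 9 arrays, 1 with array weights and 3 with an intensity trend, and lay between 0 and 1 with an array left out. In Y3/CD103-/- versus WT the count of 2 became 0 without a filter on dim genes, 0 with arrays centred on their median, 0 with array weights, 0 with only the 2 groups compared, 0 with Y3 arrays 1 and 3 averaged and 0 with the replicate number as a block, and lay between 0 and 1 with an array left out. Between Y3/CD103-/- and Y3 it stayed at 0. The differences of Il6ra, Il6st, Il27ra, Stat3 and Jak2 kept their sign in every alternative run. That of Tyk2 in Y3/CD103-/- versus WT was -0.022 after quantile normalization and -0.037 with array weights, and lay between -0.20 and 0.13 with an array left out. In Y3/CD103-/- versus Y3, Cxcr3 was 0.022 after quantile normalization, and with an array left out Cxcr3 lay between -0.23 and 0.059 and Il12rb2 between -0.049 and 0.19.

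Over all tested genes, 101 passed in Y3 versus WT, 79 up and 22 down (46 up and 32 down after quantile normalization). The count was 52 without the filter, 222 above the median on all 9 arrays, 332 with a trend, 346 with array weights, 54 with the replicate block, 63 with only the 2 groups and 12 with Y3 arrays 1 and 3 averaged, and 8 to 121 with an array left out. In Y3/CD103-/- versus WT, 107 passed, and 54, 215, 303, 60, 55, 17 and 62 under the same alternatives in that order, and 29 to 72 with an array left out. Between Y3/CD103-/- and Y3, 1 passed, and 3 with the mean of a gene's features, 4 with a trend and 9 with array weights, and 1 to 2 with an array left out. The cause of these changes was not tested. Deviations of arrays with the same replicate number correlated between -0.044 and 0.107, so the numbers were not taken as pairs.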

Other observations

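Stat3 stands beside Stat5a and Stat5b on mouse chromosome 11 in the gene order of RefSeq's GRCm38.p6 table. The neighbours were looked at after the values of the STAT genes were seen, so their differences are a description. Stat3, Stat5a and Stat5b were all higher than WT, by 0.74, 0.72 and 0.48 log2 in Y3/CD103-/- and by 0.51, 0.61 and 0.30 in Y3. On the side of Stat3 away from Stat5a, Cavin1 differed by -0.26 in Y3/CD103-/- and -0.28 in Y3, and Naglu by -0.21 and -0.27. Mlx, further out and with group means from 5.03 to 5.21, differed by -0.18 and -0.10. On the other side, Ghdc, next to Stat5b, differed by -0.44 in Y3/CD103-/- and -0.19 in Y3, and Rab5c by 0.09 and -0.07. None of the tested neighbours passed in limma. Cavin1, Naglu and Ghdc were dim, with group means from 2.91 to 3.94 beside array medians from 3.15 to 3.23, so a rise could be missed in them. Hcrt, Atp6v0a1, Hsd17b1 and Coasy did not pass the filter on dim genes.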
